A study of Homo sapiens with 6 samples.

Results

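The genes described here are 10 members of the BCL2 family, taken as the rows of the deposited count and FPKM table whose gene name is BCL2, BCL2L1, MCL1, BAX, BAK1, BBC3, PMAIP1, BCL2L11, BMF or BID. They are 10 of 19937 gene rows. The list was fixed by gene name, with earlier results of these data known. They were measured by RNA sequencing in SK-N-BE(2) cells, a neuroblastoma line known for its MYCN amplification, in 3 libraries titled sgcon and 3 titled sgGPR91. GPR91, encoded by SUCNR1, is the G protein-coupled receptor for succinate, and its gene was the target of the knockout. Drug had been given to the cells of all 6 libraries: one label field gives doxorubicin at 100 nmol/L for 48 hours, the other DOX at 1.5 µg/ml for 48 hours, and the 2 were not reconciled. Untreated cells were not analysed here, so every comparison is between treated groups. Titles and genotype tags disagree: the tag reads GPR91 knockout for sgcon and Control for sgGPR91. Groups follow the titles, and every direction below is opposite should the tags be the correct ones. The labels name neither a clone nor a pool for either group, and do not call the replicates separate cultures. The p-values therefore rest on the spread among libraries alone, and that spread may be technical.

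BCL2 family proteins decide whether the outer mitochondrial membrane is opened during intrinsic apoptosis. Guards (BCL2, BCL-XL from BCL2L1, and MCL1) hold the membrane closed by binding their relatives. Effectors (BAX and BAK1) form the pore that releases cytochrome c. BH3-only proteins (PUMA from BBC3, NOXA from PMAIP1, BIM from BCL2L11, BMF and BID) sense stress and either block guards or activate effectors. Anthracyclines such as doxorubicin damage DNA, and BAX, BBC3 and PMAIP1 are well-known genes of the DNA damage response, while BCL2L11 and BBC3 are also targets of FOXO factors. BCL2 is characteristically expressed in neuroblastoma.

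Total counts were between 7070189 and 10252425 per library. SUCNR1 had 3 reads over the sgcon libraries and 1 read over the sgGPR91 libraries (two-sided exact permutation test, p = 0.7; a design of 3 against 3 cannot go below 0.1), so its level could not show which label was right. All 10 neuroblastoma markers examined, among them HAND2, DBH and MYCN, averaged 5 CPM or more in each group. Their summed level was 6630 to 7490 CPM in the sgcon libraries and 4900 to 5334 CPM in the sgGPR91 libraries, with 8 of them lower and 1 higher. The haematopoietic and endothelial markers had 0 members at 5 CPM in either group, with summed levels of at most 1.68 and 0.277 CPM. Of 5 mesenchymal markers, 4 reached 5 CPM in both groups; their sum was 470.9 to 514.4 CPM in sgcon and 385.6 to 395.9 CPM in sgGPR91, with TWIST1, FN1 and COL1A1 lower, SNAI2 higher and PRRX1 not called. Of 4 epithelial markers, EPCAM alone reached 5 CPM and fell from 14.7 ± 2.47 to 7.76 ± 0.988 CPM (SD, n = 3; edgeR adjusted p = 0.000539), while KRT8, KRT18 and CDH1 were at or near 0. The part of these marker differences in the results below was not tested. CPM here is counts scaled to library size by edgeR's TMM method. In such bulk samples fewer cells of a type and less RNA per cell cannot be told apart.

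The family did not move as a block. Of the 10 genes, 3 rose in the libraries labelled sgGPR91 (BCL2, MCL1 and BAX), 3 fell (BBC3, BCL2L11 and BMF), and 4 did not pass the test (BCL2L1, BAK1, PMAIP1 and BID). Calls used edgeR's quasi-likelihood test, with p-values adjusted over all genes tested and a threshold of 0.05. All 10 passed the filter on low counts, with between 47 reads (BBC3) and 3357 reads (MCL1) per library. Among all 12701 genes tested, 41.1% were called, 20.2% higher and 21.0% lower, so the count of 6 called members is read against a transcriptome in which calls were common. The differences were modest: the median absolute log2 fold change was 0.25 in the family and 0.25 over all genes tested. The groups did not overlap for 8 of the 10 genes, against 50.9% of the genes tested; 5 lay higher (25.7% of the genes tested) and 3 lower (25.2%) in sgGPR91. BAX had the largest rise, 1.34-fold, and 29.6% of the genes tested had a larger absolute log2 fold change. By role, 2 of 3 guards and 1 of 2 effectors rose, and 3 of 5 BH3-only genes fell.

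**Figure D1:**
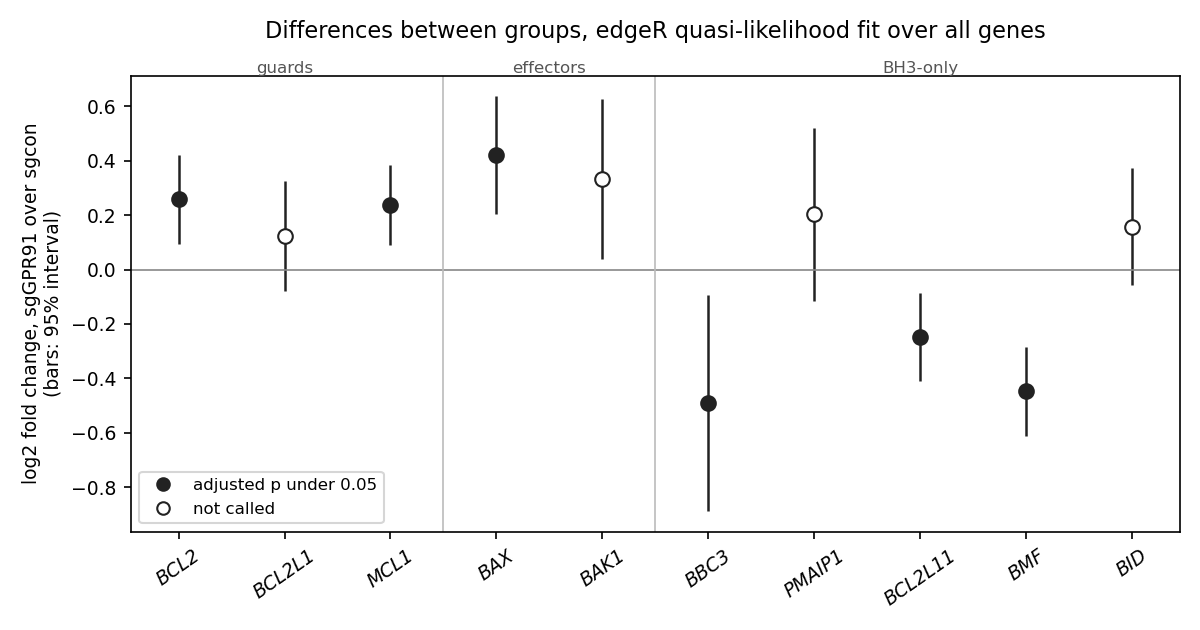
Log2 fold change (y axis) of each BCL2 family gene (x axis, by role) in the libraries labelled sgGPR91 over those labelled sgcon, 3 libraries each; bars are 95% intervals, not adjusted for the number of genes, and filled points are genes called at an adjusted p under 0.05. BCL2, MCL1 and BAX lie above 0, and BBC3, BCL2L11 and BMF lie below it.

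MCL1 stood far above the rest of the family per listed gene length. FPKM, a count divided by gene length and library total, allows genes to be ordered within a group. In the sgcon libraries MCL1 was at 49.99 ± 3.05 FPKM (SD, n = 3), followed by BMF at 20.8 ± 1.98 and BCL2L11 at 18.4 ± 1.55 FPKM. The ranges of BMF and BCL2L11 overlapped, and both were clear of MCL1 above and of BID below. BID, BAX, BCL2L1, BAK1 and BCL2 followed with means from 10.03 down to 7.29 FPKM, and each overlapped its neighbour in that order. PMAIP1, at 5.28 ± 0.607 FPKM, and BBC3, at 2.56 ± 0.0944 FPKM, came last and overlapped no neighbour. In the sgGPR91 libraries MCL1 was again first, at 59.3 ± 1.48 FPKM. BCL2L11 (15.5 FPKM) and BMF (15.3 FPKM) had changed places but still overlapped, so their order was not resolved in either group. BAX moved from the fifth to the fourth place with 12.5 ± 0.745 FPKM and overlapped BID at 11.3 ± 0.876 FPKM. BBC3 was last at 1.83 FPKM. The order depends on the listed gene lengths, which sum the exons of all isoforms: the listed length of BMF is 5447 bases, whereas the median coding transcript of BMF in GENCODE version 29 has 735 bases. For MCL1 these lengths are 6222 and 3626 bases. Per median coding transcript length BMF would stand above MCL1 in both groups. The first place of MCL1 therefore depends on the length used. It was kept with merged exon lengths of GENCODE version 29 (4371 bases for MCL1, 5447 for BMF). Without any gene length MCL1 was also first, at 312.2 CPM in sgcon and 368.1 CPM in sgGPR91. BCL2L11 was at 122.9 and 103.3 CPM.

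Among the guards, BCL2 and MCL1 rose. MCL1 encodes a short-lived guard that binds BAK1, BIM and NOXA (ENSG00000143384, chromosome 1, 150560895 to 150579738, minus strand, as the deposited table gives it). Its level was 325.9, 293.3 and 317.3 CPM in sgcon replicates 1, 2 and 3, and 381.0, 365.2 and 358.0 CPM in the sgGPR91 libraries. Every sgGPR91 library was above every sgcon library. The rise was 1.18-fold, a log2 fold change of 0.24 ± 0.07 (SE; 95% interval 0.09 to 0.39; edgeR adjusted p = 0.0116). The call ended without sgcon replicate 2 (adjusted p = 0.0799) and without sgGPR91 replicate 1 (adjusted p = 0.0536). The listed MCL1 gene starts at 150560895, while GENCODE version 29 on GRCh38 starts it at 150574551. The stretch between them runs along ADAMTSL4-AS1, a non-coding gene on the same strand, so the listed MCL1 row may hold reads from outside MCL1; its listed length is 6222 bases, against 4371 bases of merged MCL1 exons in GENCODE.

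BCL2, the founding guard of the family (ENSG00000171791, chromosome 18, 63123346 to 63320128, minus strand), was at 82.4, 95.8 and 98.5 CPM in the sgcon libraries. It was at 108.3, 109.2 and 113.3 CPM in the sgGPR91 libraries. The groups did not overlap, and sgcon replicate 1 was the lowest library. The rise was 1.196-fold, with a log2 fold change of 0.26 ± 0.08 (SE; 95% interval 0.09 to 0.42; edgeR adjusted p = 0.0141). The call ended without sgcon replicate 1 (log2 fold change 0.18, adjusted p = 0.0600), without sgGPR91 replicate 3 (adjusted p = 0.0692) and with limma on log2(FPKM + 1) (adjusted p = 0.0502).

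BCL2L1, which encodes BCL-XL (ENSG00000171552, chromosome 20, 31664452 to 31723989, minus strand), was not called. Its levels were 40.3, 39.5 and 33.4 CPM in the sgcon libraries and 40.6, 42.1 and 40.9 CPM in the sgGPR91 libraries. The lowest sgGPR91 library was 40.6 CPM and the highest sgcon library 40.3 CPM, so the groups were apart by less than the spread within sgcon. Its log2 fold change was 0.12 with a 95% interval of -0.08 to 0.32 (edgeR adjusted p = 0.323), which does not show that the groups were alike. Counts per gene do not separate the long and short forms of BCL2L1 or MCL1, whose products act in opposite ways on apoptosis. An antisense gene, ABALON, shares 1424 exon bases with BCL2L1 in GENCODE version 29, and the labels do not say that counting used strand.

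The shares of the 3 guards overlapped between the groups. As a share of the summed FPKM of BCL2, BCL2L1 and MCL1, MCL1 made up 76.5, 73.5 and 76.4% in the sgcon libraries and 77.0, 75.9 and 75.4% in the sgGPR91 libraries. BCL2L1 held 13.5% ± 1.43 and 12.6% ± 0.414 (SD, n = 3), while BCL2 held 9.54, 11.8 and 11.7% against 10.8, 11.2 and 11.8%. Leaving out 1 library turned 2 of these differences: the BCL2 difference of 0.23 percentage points became -0.51 without sgcon replicate 1 and the MCL1 difference of 0.66 became -0.31 without sgcon replicate 2. For BCL2L1 the difference of -0.89 percentage points became -1.69 without sgcon replicate 3. With GENCODE version 29 median coding transcript lengths in place of the listed ones, MCL1 held 72.2% and 72.8%, and BCL2 (15.5% and 15.8%) stood above BCL2L1 (12.3% and 11.5%).

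Of the effectors, BAX rose. BAX, the pore-forming protein that moves from the cytosol to mitochondria (ENSG00000087088, chromosome 19, 48954815 to 48961798, plus strand), was at 24.1, 23.4 and 24.8 CPM in the sgcon libraries. It was at 32.9, 33.6 and 29.97 CPM in the sgGPR91 libraries. The groups were well apart, with 24.8 CPM the highest sgcon value. The log2 fold change was 0.42 ± 0.10 (SE; 95% interval 0.20 to 0.64; edgeR adjusted p = 0.00356), and the call held in all 13 alternative settings, with log2 fold changes between 0.39 and 0.47. GENCODE version 29 places no other gene across BAX.

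BAK1, the effector that resides on mitochondria (ENSG00000030110, chromosome 6, 33572547 to 33580293, minus strand), was at 20.7, 16.7 and 14.8 CPM in the sgcon libraries. The sgGPR91 libraries had 19.98, 23.8 and 22.3 CPM. The groups overlapped because sgcon replicate 1 was above sgGPR91 replicate 1. The log2 fold change was 0.33 with a 95% interval of 0.04 to 0.63, and the edgeR adjusted p of 0.0659 missed the threshold. Without sgcon replicate 1 it was called (log2 fold change 0.47, adjusted p = 0.0130), as it was with limma on log2(FPKM + 1) (adjusted p = 0.0406). GENCODE lists processed pseudogenes of BAK1 elsewhere in the genome, so the assignment of its reads is less certain. The pseudogene GGNBP1, on the other strand, shares 91 exon bases with BAK1.

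The promoter of BAX is shown because BAX had the largest rise in the family and its upstream sequence repeats 1 motif. The sequence is from RefSeq on GRCh38.p14 and covers the 250 bases before the RefSeq start (chr19:48954625-48954874, plus strand), with the E-box CACGTG, a core sequence bound by MYC family and other factors, in capitals.
BAX: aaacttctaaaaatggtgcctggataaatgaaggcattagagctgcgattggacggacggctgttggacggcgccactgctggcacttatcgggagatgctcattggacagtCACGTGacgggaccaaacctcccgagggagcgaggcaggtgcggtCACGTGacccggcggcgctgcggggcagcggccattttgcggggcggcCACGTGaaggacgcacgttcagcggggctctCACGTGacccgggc
The window holds 4 E-boxes, which begin at positions -138, -93, -45 and -14 from the start. The E-box is not particular to BAX in the family. The BBC3 window, of a gene that fell, holds 1. BID windows 2 and 5, of a gene not called, hold 1 each, but these windows overlap, so both may hold the same site. At least 1 E-box, which reads the same on both strands, occurs in 6.34% of 35116 RefSeq promoter windows of the same length, and 3 or more occur in 0.0797%. The BAX window was picked for this repeat, so the 0.0797% is a description and not a test. A match describes the letters and does not show that a factor binds there. MYCN, the MYC family gene amplified in this line, fell from 2769 ± 132.7 to 1690 ± 150.4 CPM (SD, n = 3; edgeR adjusted p = 7.281e-06), and any part of this in the BAX difference was not tested.

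BMF, BCL2L11 and BBC3 fell among the BH3-only genes. BMF encodes a BH3-only protein that is held on the actin cytoskeleton and released by loss of attachment (ENSG00000104081, chromosome 15, 40087890 to 40108892, minus strand). It was at 104.6, 114.2 and 121.9 CPM in the sgcon libraries and at 79.5, 82.9 and 87.2 CPM in the sgGPR91 libraries. All sgGPR91 libraries were below all sgcon libraries. The fall was 1.36-fold, a log2 fold change of -0.45 ± 0.08 (SE; 95% interval -0.61 to -0.28; edgeR adjusted p = 0.000216), and it was called in all 13 alternative settings, between -0.51 and -0.40. BMF-AS1, an antisense gene, shares 461 exon bases with BMF in GENCODE version 29, and reads of the pair are treated as not separable.

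BCL2L11, the BIM gene, whose product binds all guards (ENSG00000153094, chromosome 2, 111119378 to 111168445, plus strand), was at 123.2, 114.7 and 131.0 CPM in the sgcon libraries. It was at 111.6, 99.4 and 98.9 CPM in the sgGPR91 libraries. The groups did not overlap, but sgGPR91 replicate 1 lay close to sgcon replicate 2. The log2 fold change was -0.25 ± 0.08 (SE; 95% interval -0.41 to -0.09; edgeR adjusted p = 0.0158). The call ended without sgGPR91 replicate 2 (adjusted p = 0.0801), without sgGPR91 replicate 3 (adjusted p = 0.0873) and with limma on log2(FPKM + 1) over all genes with a value (adjusted p = 0.0558). The non-coding gene MIR4435-2HG shares 727 exon bases with BCL2L11 on the other strand.

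BBC3, the PUMA gene, whose product binds all guards (ENSG00000105327, chromosome 19, 47220822 to 47232766, minus strand), had the fewest reads of the family. It had 73, 87 and 56 reads in the sgcon libraries and 52, 50 and 47 in the sgGPR91 libraries. Scaled to library size these were 8.17, 8.61 and 7.77 CPM against 5.90, 6.05 and 5.55 CPM, and the groups did not overlap. The log2 fold change was -0.49 ± 0.19 (SE; 95% interval -0.89 to -0.09), a fall of 1.41-fold that just passed the threshold (edgeR adjusted p = 0.0457). It was called in 5 of 13 alternative settings and in 1 of the 6 that left out a library (the one without sgcon replicate 3), with adjusted p-values from 0.0123 to 0.134 over all 13. DESeq2 did not call it (adjusted p = 0.105).

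The upstream sequences of the BH3-only genes that fell are shown together because these genes moved the same way. Each covers the 250 bases before a RefSeq start on GRCh38.p14, 5′ to 3′ on the gene's strand, with 3 motifs in capitals where they occur on either strand: the FOXO site GTAAACA, the GC box GGGCGG bound by SP factors, and the CCAAT box (ATTGG on the other strand), bound by NF-Y. In the BBC3 window the E-box is also in capitals. The BMF window, the first of 2 in the table, lies at chr15:40108880-40109129 (minus strand), BCL2L11 at chr2:111120664-111120913 (plus strand) and BBC3 at chr19:47232668-47232917 (minus strand). As for BAX, these RefSeq starts lie downstream of the gene starts in the deposited table, so each window reaches into the listed gene. The BCL2L11 window lies wholly inside its listed gene, which starts at 111119378, whereas the others reach in only in part.
BMF: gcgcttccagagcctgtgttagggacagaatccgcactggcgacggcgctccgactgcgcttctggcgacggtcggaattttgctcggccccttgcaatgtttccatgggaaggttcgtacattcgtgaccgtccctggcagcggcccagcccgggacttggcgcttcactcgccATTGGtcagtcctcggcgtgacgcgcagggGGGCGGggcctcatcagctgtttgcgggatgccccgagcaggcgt
BCL2L11: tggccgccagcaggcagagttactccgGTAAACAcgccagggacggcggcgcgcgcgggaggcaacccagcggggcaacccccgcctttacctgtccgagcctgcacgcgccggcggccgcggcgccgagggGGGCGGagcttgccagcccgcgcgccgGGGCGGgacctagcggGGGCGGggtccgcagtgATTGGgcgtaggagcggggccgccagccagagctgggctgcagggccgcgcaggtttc
BBC3: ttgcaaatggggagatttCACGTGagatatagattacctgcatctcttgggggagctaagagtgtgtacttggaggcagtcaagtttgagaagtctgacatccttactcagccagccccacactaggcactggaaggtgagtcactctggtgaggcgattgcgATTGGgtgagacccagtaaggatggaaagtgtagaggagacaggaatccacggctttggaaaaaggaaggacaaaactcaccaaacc
Each of the 3 windows holds 1 CCAAT box, a motif found in 32.0% of all windows. The BAX window, of a gene that rose, holds 2 and the BAK1 window 1, and the second BMF window holds 0. BCL2L11 holds the FOXO site, found in 2.98% of all windows, and 3 GC boxes, while BMF holds 1 GC box and BBC3 none (42.6% of all windows hold at least 1). Of the members that did not fall, PMAIP1 holds 4 GC boxes, BAK1 2 and BAX 1. The BID windows hold 0 to 4, and those of BCL2 and BCL2L1 hold 0. The stress element TGATGNAAT of ATF4 and CHOP (0.888% of all windows) matched in 0 of the 15 windows found for 9 of the 10 members. No match says only that these letters are not in this window. FOXO3, which encodes a FOXO factor, was at 255.9 ± 10.8 and 236.3 ± 9.95 CPM and was not called (edgeR adjusted p = 0.188). Its sgGPR91 libraries were all below its sgcon libraries. FOXO1, also a FOXO factor gene, rose from 2.00 ± 0.389 to 4.21 ± 0.891 CPM (edgeR adjusted p = 0.00908). Any part of either gene in the differences above was not tested.

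PMAIP1 and BID, the remaining BH3-only genes, were not called. PMAIP1 encodes NOXA, which binds MCL1 selectively (ENSG00000141682, chromosome 18, 59899996 to 59904305, plus strand). It was at 12.2, 10.2 and 12.4 CPM in the sgcon libraries and 13.3, 13.9 and 12.6 CPM in the sgGPR91 libraries. The groups did not overlap, by a margin smaller than the spread within either. Its log2 fold change was 0.20 with a 95% interval of -0.11 to 0.52 (edgeR adjusted p = 0.296). BID links death receptors to mitochondria after cleavage by caspase-8 (ENSG00000015475, chromosome 22, 17734138 to 17774770, minus strand). It was at 49.3, 45.8 and 38.6 CPM against 54.7, 46.6 and 48.3 CPM, and the groups overlapped. For BID the log2 fold change was 0.16 with a 95% interval of -0.06 to 0.37 (edgeR adjusted p = 0.232). PMAIP1 and BID were called in 0 of the 13 alternative settings.

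Ratios between binding partners within a library do not depend on library scaling, and 5 were examined without a test. The log2 ratio of BCL2L11 to BCL2 FPKM was 1.50, 1.18 and 1.33 in the sgcon libraries and 0.97, 0.79 and 0.73 in the sgGPR91 libraries. All sgGPR91 values were lower, with a difference of -0.51. The log2 ratio of BBC3 to BCL2L1 was -1.90, -1.80 and -1.71 against -2.39, -2.40 and -2.49, also without overlap, with a difference of -0.62. Both ratios set a BH3-only gene that fell against a guard with a higher level in every sgGPR91 library, although BCL2L1 was not called. The ratio differences restate the fold changes of the single genes and add no separate evidence. The ratio of PMAIP1 to MCL1, a selective pair, was -3.25 ± 0.08 and -3.28 ± 0.07 (SD, n = 3) and overlapped. BAX to BCL2 (0.35 ± 0.14 and 0.51 ± 0.12) and BAK1 to BAX (-0.25 ± 0.26 and -0.32 ± 0.15) overlapped as well, and the BAK1 to BAX difference of -0.07 became 0.06 without sgcon replicate 1 and 0.02 without sgGPR91 replicate 1. These are ratios of transcripts and say nothing of protein or of binding.

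**Figure D2:**
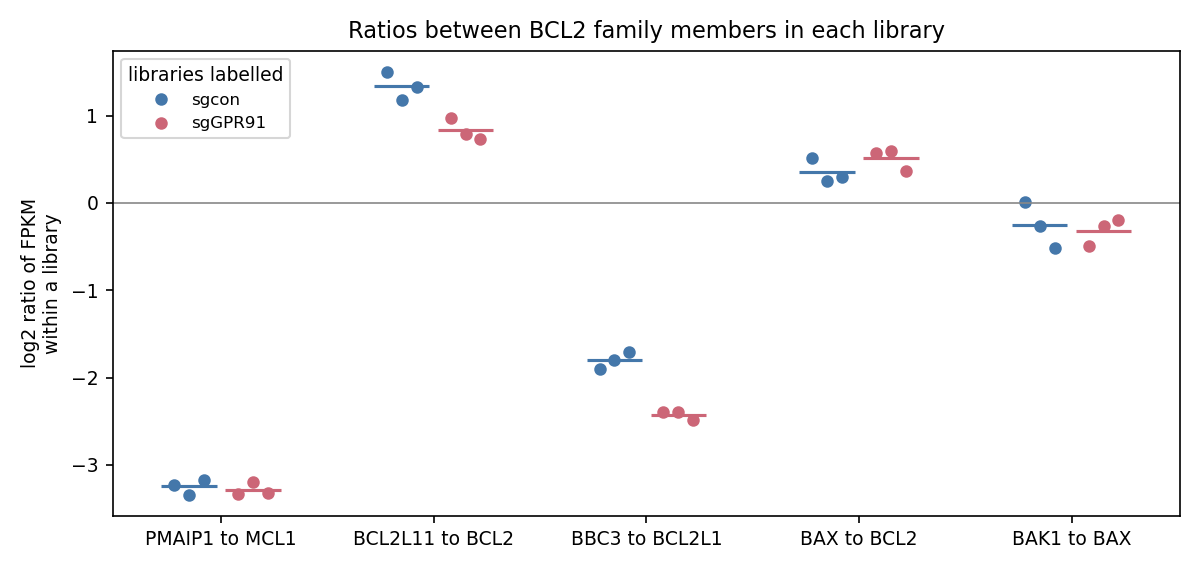
Log2 ratio of FPKM between 2 BCL2 family genes within a library (y axis) for 5 pairs (x axis); points are libraries and lines are group means of 3 libraries. The groups are apart for BCL2L11 to BCL2 and for BBC3 to BCL2L1 and overlap for the other pairs.

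Of 14 other genes of the wider family, 10 were tested, of which 2 fell, beside 21.0% of all genes tested, and 0 rose, beside 20.2%, by edgeR (0 also at an unadjusted p under 0.05, and 0 with DESeq2), with a median log2 fold change of -0.16 against -0.01 over all genes tested. BNIP3, a mitophagy receptor with a BH3-like motif that is induced by hypoxia, was at 705.4, 722.5 and 413.7 CPM in the sgcon libraries and 270.9, 304.1 and 262.3 CPM in the sgGPR91 libraries. The groups did not overlap although sgcon replicate 3 was far below the other sgcon libraries, and the log2 fold change was -1.14 ± 0.15 (SE; edgeR adjusted p = 1.575e-05). BCL2L13, another mitochondrial mitophagy receptor, fell from 170.6 ± 6.08 to 137.5 ± 1.22 CPM (SD, n = 3; edgeR adjusted p = 0.00112). The guard gene BCL2L2, which encodes BCL-W, was at 13.3 ± 0.585 and 14.3 ± 1.53 FPKM, above BCL2L1 in every library, and was not called. BAD, whose product is held in the cytosol by 14-3-3 proteins, was at 2.20 ± 0.942 and 3.22 ± 0.656 CPM, with a wide 95% interval of -0.16 to 1.34 for its log2 fold change. HRK, BOK, BCL2L12, BCL2L15, BECN1 and BNIP3L were not called either, and BNIP3L was called without sgcon replicate 3 (adjusted p = 0.000474). The 4 genes below the count filter were BCL2A1 with 0 reads in every library, which allows up to 0.424 CPM in the shallowest, BCL2L10 with 6 and 6 reads, BCL2L14 with 6 and 5, and BIK with 10 and 12.

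Among 27 regulators and partners of the family, all tested, 7 rose and 5 fell, beside 20.2% and 21.0% of all genes tested, with a median log2 fold change of -0.03. Of the genes that control MCL1 stability, FBXW7, the ubiquitin ligase subunit that marks MCL1 for degradation, fell from 56.3 ± 2.18 to 27.9 ± 0.984 CPM (SD, n = 3; log2 fold change -1.02 ± 0.09 SE; edgeR adjusted p = 2.146e-07). USP13, a deubiquitinase, rose from 48.0 ± 0.614 to 62.5 ± 3.31 CPM. The ligase genes HUWE1 and MARCHF5 and the deubiquitinase gene USP9X were not called; HUWE1 was called without sgcon replicate 1 (adjusted p = 0.00524) and MARCHF5 without sgGPR91 replicate 3 (adjusted p = 0.0301). These values stand beside the MCL1 rise, and their part in it was not tested.

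DYNLL1, a dynein light chain that binds BIM, rose from 71.4 ± 9.92 to 109.3 ± 15.96 CPM, and its paralog DYNLL2, which binds BMF, was at 109.3 ± 3.59 and 113.7 ± 4.15 CPM and was not called. TP73, which encodes a transcription factor that can induce BBC3, fell from 3.82 ± 0.791 to 1.05 ± 0.472 CPM (SD, n = 3; edgeR adjusted p = 0.000842). FOXO1 rose from 2.00 ± 0.389 to 4.21 ± 0.891 CPM, a call that ended without sgcon replicate 2 (adjusted p = 0.0515) and without sgGPR91 replicate 1 (adjusted p = 0.0615). Of the 14-3-3 genes, YWHAE had 3789, 3868 and 2415 reads in the sgcon libraries and 0, 2 and 0 in the sgGPR91 libraries, while YWHAZ rose from 925.6 ± 61.1 to 1218 ± 42.7 CPM. YWHAE was not the stated target of the knockout, so the groups differed in more than the target. Any part of the YWHAE loss, or of other differences between the groups, in the BCL2 family differences was not tested.

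Downstream of the pore, CYCS, the cytochrome c gene, rose from 66.1, 67.9 and 64.4 CPM to 148.2, 133.6 and 130.4 CPM (log2 fold change 1.05 ± 0.07 SE; edgeR adjusted p = 2.079e-08). APAF1, which binds released cytochrome c, fell from 58.2 ± 1.34 to 48.3 ± 1.23 CPM (SD, n = 3), and the call ended without sgGPR91 replicate 1 (adjusted p = 0.0508). XIAP, a caspase inhibitor gene, rose from 86.0 ± 10.6 to 114.7 ± 4.86 CPM. DIABLO and HTRA2, which encode antagonists of XIAP, were not called. TMBIM6, a cell death inhibitor of the endoplasmic reticulum, rose (0.23 ± 0.07 log2, SE), a call that ended without sgGPR91 replicate 1 (adjusted p = 0.0763). FKBP8, which anchors BCL2 and BCL-XL at mitochondria, fell with a log2 fold change of -0.22, but its groups overlapped, and the call ended in 5 of the 6 settings that left out a library, holding only without sgcon replicate 3. The porin genes VDAC1 and VDAC2 and the genes BAG3 and GSK3B were not called, and each was called in 1 of the 6 settings that left out a library: VDAC1 and BAG3 without sgcon replicate 1 (adjusted p = 0.0197 and 0.0150), VDAC2 and GSK3B without sgcon replicate 3 (adjusted p = 0.0287 and 0.0252). AKT1, MAPK8, BTRC and BAG1 were not called.

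**Figure D3:**
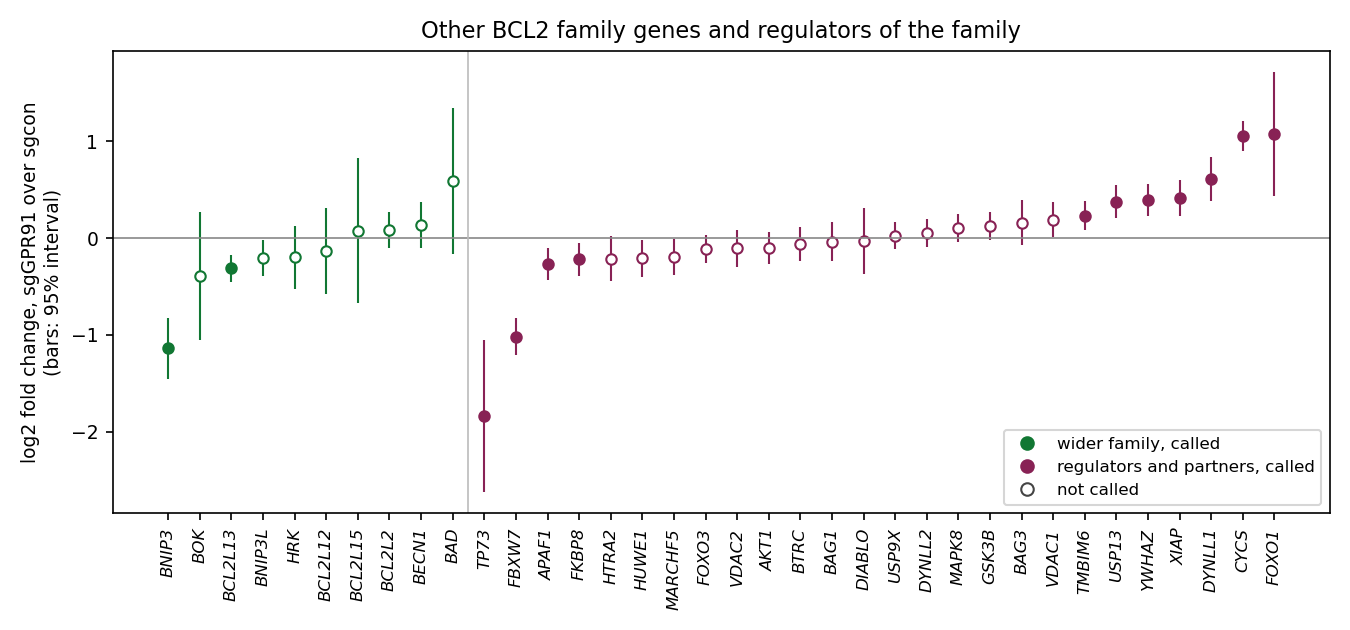
Log2 fold change of the libraries labelled sgGPR91 over sgcon (y axis) with 95% intervals, not adjusted for the number of genes, for the 10 tested genes of the wider BCL2 family and 26 of the 27 regulators and partners (x axis), 3 libraries a group; filled points are called. YWHAE, with 2 reads over the sgGPR91 libraries, is off the scale and left out, and BNIP3, TP73 and FBXW7 are the lowest points while CYCS and FOXO1 are the highest.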

How the data were processed

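The BCL2 family members and all gene lists were chosen with earlier results of these data known. The deposited table holds raw read counts and FPKM for each gene, per the file headers; all 90322 deposited FPKM values with a count above 0 were within 0.01% of the count scaled by listed gene length and column total. HISAT2, Bowtie2 and RSEM are named in the submitters' processing notes. Their versions and roles, the genome build and the strand setting are not given in the sources used here. Counts of all 6 libraries were fitted with edgeR 4.0.16 in R 4.3.3 (filterByExpr with minimum count 10 and minimum total 15, TMM, quasi-likelihood test, no covariate), with Benjamini-Hochberg adjustment over 12701 genes. Standard errors were derived from the fold change and its F statistic, and 95% intervals from the fit's degrees of freedom. The script was tested on simulated data. All 10 members are named whatever their result; of the other lists, called genes are named and uncalled ones given by name or range. Alternatives were DESeq2 1.42.0, RLE scaling, no count filter, limma 3.58.1 on log2(FPKM + 1) or log2(FPKM + 0.1), a replicate block, and leaving out each library. GENCODE version 29 gene lengths were an alternative chosen after seeing the data. RefSeq promoter windows on GRCh38.p14 were found for 9 of the 10 members (15 windows). A marker and a regulator are left out of the lists and not reported here.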

Additional observations from a re-analysis of the deposited data

How the results depend on the processing

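All 10 BCL2 family genes kept their direction in all 13 alternative settings, and BAX, BMF, BCL2L1, PMAIP1 and BID also kept their side of the threshold. BBC3 lost its call at an unchanged log2 fold change of -0.49 with DESeq2 (adjusted p = 0.105), with no count filter (adjusted p = 0.0563) and with the replicate number as a block (adjusted p = 0.0581), and ranged from -0.52 to -0.45 when 1 library was left out. BCL2 lost its call with limma on log2(FPKM + 1), with the count filter or without (0.24 in both; adjusted p = 0.0502 and 0.0695), and ranged from 0.18 to 0.31 with 1 library left out. BCL2L11 lost its call with limma on log2(FPKM + 1) without a filter (-0.23) and ranged from -0.31 to -0.20, and MCL1 from 0.19 to 0.27. BAK1 gained a call with limma on log2(FPKM + 1) and log2(FPKM + 0.1) (0.32 and 0.35) and with the replicate block (0.34, adjusted p = 0.0421), and ranged from 0.24 to 0.47. The cause of these changes was not tested, but the settings with a library left out have fewer samples. The number of regulators called lower was 3 to 6 with 1 library left out, 3 without sgGPR91 replicate 1. Of 481 values for the 37 other listed genes, 9 changed sign, all with 1 library left out and none called: BAG1 (-0.10 to 0.04, with 0.00 between), BCL2L12 (0.02), BCL2L15 (-0.03 and -0.08) and DIABLO (-0.14 to 0.05, with 0.00, 0.01 and 0.02 between). Of the genes not called, BNIP3L and HUWE1 were also called without the count filter (adjusted p = 0.0444 and 0.0465), and BNIP3L, HUWE1, MARCHF5 and VDAC1 with the replicate block (adjusted p = 0.0317, 0.0383, 0.0483 and 0.0245). FKBP8 lost its call in the 3 limma settings (adjusted p = 0.0532, 0.0535 and 0.0826). The median over all genes tested stayed between -0.01 and 0.01. The labels do not say whether same-numbered libraries share a batch. The correlations of their deviations were 0.159, 0.019 and 0.096, and 5 of 6 libraries correlated best with their own number. The replicate block moved the count of called genes from 5221 to 5670. Group differences in guard shares and in ratios moved by less than 1 SD, pooled over both groups, in every alternative, but with 1 library left out the differences in the BCL2 share (-0.51 to 0.63 percentage points), the MCL1 share (-0.31 to 1.17) and the BAK1 to BAX log2 ratio (-0.20 to 0.06) crossed 0. The shares themselves depend on the gene lengths used. BBC3 had 47 to 87 reads per library, the fewest of the family. Floors cover counting error only.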
